A study of Mus musculus with 7 samples.

Results

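Sfmbt2, Nrn1 and Emx2os are 3 genes of the 27998 in the deposited tables that were close to silent in the direct-pathway neurons of wild-type striatum and were detected in those of every HttQ175/+ mouse. They were selected on exactly that: at most 1 unique molecular identifier (UMI, 1 counted RNA molecule) over all wild-type D1.MSN nuclei, and the highest numbers of UMIs in HttQ175/+ D1.MSN nuclei. Their values in D1.MSN nuclei are therefore given as a description with no test. All 3 genes were found in the tables and all 3 are followed through every cell type below.

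Nuclear RNA was measured by droplet single-nucleus sequencing, read from the 3' ends of transcripts, in striatum of 7 male C57BL6/J mice, with 1 library per mouse. The HttQ175/+ group held 4 mice with 1 copy of HttQ175, in which the mouse's own huntingtin gene has been given an expanded CAG repeat, a model of Huntington's disease; replicate 1 was 15 months old and the others 14 months. The WT group held 3 mice of 14 months with no such allele. The series asked whether mutant huntingtin alters the identity of striatal cells. The authors' annotation placed 4524 nuclei in 12 types, of which D1.MSN and D2.MSN are the direct-pathway and indirect-pathway spiny projection neurons (dSPNs and iSPNs) that carry most striatal output. Replicate numbers only name mice, and p-values measure the spread between mice.

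Sfmbt2 encodes a Polycomb group protein with MBT domains, which bind methylated histone tails. It belongs to the Pho repressive complex, in which a DNA-binding partner, YY1 in mammals and Pho in Drosophila, recruits Polycomb repression to target genes, and in mice it is imprinted and hosts a large microRNA cluster in an intron. Nrn1 encodes neuritin, also called CPG15, a small lipid-anchored surface protein that neuronal activity induces and that promotes the growth of neurites and the stability of synapses. Emx2os is a long noncoding RNA transcribed antisense to Emx2, a homeobox transcription factor of the developing dorsal telencephalon, the territory next to the one that gives rise to the striatum. Spiny neurons arise from the ventral telencephalon.

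The 3 genes lie on different chromosomes of mm10. Sfmbt2 spans 224744 bases at chr2:10370510-10595253 on the plus strand, with 119 annotated microRNA genes inside its span. Nrn1 spans 9771 bases at chr13:36725361-36735131 on the minus strand. Emx2os spans 33532 bases at chr19:59425104-59458635 on the minus strand. By the GENCODE spans its first 264 bases overlap the start of Emx2 at chr19:59458372-59465357 on the plus strand. The sources used here do not say whether reads were counted by strand. Without it, reads from that overlap could be assigned to either gene, which was not tested. Promoter windows, 250 bases before to 50 after an annotated start, were read from RefSeq on GRCm38.p6 for Sfmbt2, which has 2 entries, and for Emx2, whose window also holds the annotated start of Emx2os. The windows are shown because they hold annotated starts of Sfmbt2, Emx2 and Emx2os. Every CpG, the dinucleotide that carries DNA methylation, is in capitals. The Emx2 window lies inside the GENCODE span of Emx2, because RefSeq places the start of Emx2 further downstream.
Sfmbt2 at chr2:10370201-10370500, plus strand: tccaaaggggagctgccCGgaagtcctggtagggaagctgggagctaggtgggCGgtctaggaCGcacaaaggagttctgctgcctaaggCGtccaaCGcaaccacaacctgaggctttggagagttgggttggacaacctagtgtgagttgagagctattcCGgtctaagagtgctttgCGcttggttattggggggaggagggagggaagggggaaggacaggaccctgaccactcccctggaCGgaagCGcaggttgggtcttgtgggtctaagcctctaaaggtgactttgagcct
Sfmbt2 at chr2:10372186-10372485, plus strand: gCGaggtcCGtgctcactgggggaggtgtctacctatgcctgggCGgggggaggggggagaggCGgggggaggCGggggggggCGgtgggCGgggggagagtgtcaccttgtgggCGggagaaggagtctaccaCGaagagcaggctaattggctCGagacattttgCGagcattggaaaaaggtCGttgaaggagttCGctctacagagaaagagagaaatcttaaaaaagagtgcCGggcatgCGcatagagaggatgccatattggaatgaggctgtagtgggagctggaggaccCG
Emx2 with the start of Emx2os at chr19:59458440-59458739, plus strand: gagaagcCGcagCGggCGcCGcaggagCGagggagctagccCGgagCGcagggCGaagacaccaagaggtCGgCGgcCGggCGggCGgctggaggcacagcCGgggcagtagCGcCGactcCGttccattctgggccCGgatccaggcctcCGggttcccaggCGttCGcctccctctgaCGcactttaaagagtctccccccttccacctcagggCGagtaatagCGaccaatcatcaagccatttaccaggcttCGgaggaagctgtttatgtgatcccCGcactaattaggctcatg

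The 3 windows differed in CpG content. The upstream Sfmbt2 window held 9 CpGs at 57.7% G and C, and 45.8% of all 32851 RefSeq promoter windows held as many or more. The downstream Sfmbt2 window held 16 CpGs at 60.0% G and C, matched by 33.0% of windows. The window shared by Emx2 and Emx2os held 26 CpGs at 64.3% G and C, matched by 16.9% of windows, where the median window had 7 CpGs and 52.7% G and C. CCATNTT, the core of the sequence bound by YY1, was searched on both strands and is a description only. It was found once, as CCATATT at base 261 of the downstream Sfmbt2 window, and not in the other windows, while 16.1% of all windows held it.

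In dSPNs all 3 genes were detected in each of the 4 HttQ175/+ mice and in at most 1 of the 3 WT mice. These 1296 HttQ175/+ and 513 WT nuclei had medians of 2008 and 2753 UMIs, so the HttQ175/+ nuclei were the shallower ones. Levels are in CPM, the UMIs of a gene scaled to a common library total, averaged over the nuclei of a mouse.

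Sfmbt2, the Polycomb gene, had 41, 44, 17 and 16 UMIs in dSPNs of HttQ175/+ replicates 1 to 4, against 0, 0 and 1 UMI in WT replicates 1 to 3. Its level averaged 39.2 ± 11.1 CPM in HttQ175/+ mice (SD, n = 4) and 0.277 ± 0.479 CPM in WT mice (SD, n = 3). At least 1 UMI was found in 8.57% of HttQ175/+ dSPN nuclei (95% Clopper-Pearson interval 7.10 to 10.2) and in 0.195% of WT nuclei (0.00494 to 1.08). Every HttQ175/+ mouse lay above every WT mouse. The ratio of pooled CPM was 59.5, with a 95% counting interval of 10.5 to 2369 that reflects the 1 WT UMI. Intervals and floors here cover counting error only.

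Nrn1, the neuritin gene, had 24, 24, 15 and 39 UMIs in the HttQ175/+ mice, against 1, 0 and 0 UMIs in the WT mice. Its level averaged 38.5 ± 18.4 CPM in HttQ175/+ mice (SD, n = 4) and 1.36 ± 2.35 CPM in WT mice (SD, n = 3). HttQ175/+ replicate 4 was the highest mouse, at 65.9 CPM, where the other 3 lay at 25.8 to 31.95 CPM. A UMI was found in 6.79% of HttQ175/+ nuclei (5.48 to 8.30) and in 0.195% of WT nuclei (0.00494 to 1.08), with a ratio of pooled CPM of 51.4 (9.02 to 2050).

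Emx2os, the antisense RNA, had 31, 21, 21 and 15 UMIs in the HttQ175/+ mice and none in any WT mouse. Its level averaged 34.0 ± 8.45 CPM in HttQ175/+ mice (SD, n = 4). A UMI was found in 6.17% of HttQ175/+ nuclei (4.93 to 7.62), against 0 of 513 WT nuclei, which allows a share of up to 0.585% by the limit used here for a count of 0, 3 counts of the total. With 3 UMIs taken as the floor for the pooled WT nuclei, the level was at least 14.8-fold higher in HttQ175/+ dSPNs. Neither group overlapped the other for any of the 3 genes, a pattern shared by 12.6% of the 8796 genes fitted in dSPNs. Nothing is read from that share, since the choice of the 3 genes fixes the pattern.

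With every nucleus thinned to 1100 UMIs, the expected shares of HttQ175/+ dSPN nuclei with a UMI were 4.51% for Sfmbt2, 3.65% for Nrn1 and 3.32% for Emx2os. Thinning lowers the shares because most positive nuclei held a single molecule: 104 of 111 for Sfmbt2, 76 of 88 for Nrn1 and 72 of 80 for Emx2os. The highest count in a nucleus was 3 UMIs, of Nrn1, in 2 nuclei. A nucleus without a UMI is therefore not shown to lack the RNA.

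Of the 14677 genes with at most 1 UMI in WT dSPNs, 40 had 20 or more UMIs in HttQ175/+ dSPNs and 4 had 80 or more. Hoxc4, a homeobox gene of posterior body patterning, stood just outside the 3 with 86 UMIs in HttQ175/+ nuclei and 0 in WT nuclei. Shox2, a homeobox factor of limb and heart development, followed with 63 UMIs in HttQ175/+ nuclei and 0 in WT nuclei, and Onecut1, a homeobox factor of liver and motor neurons, had 45 and 0 UMIs.

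**Figure D1:**
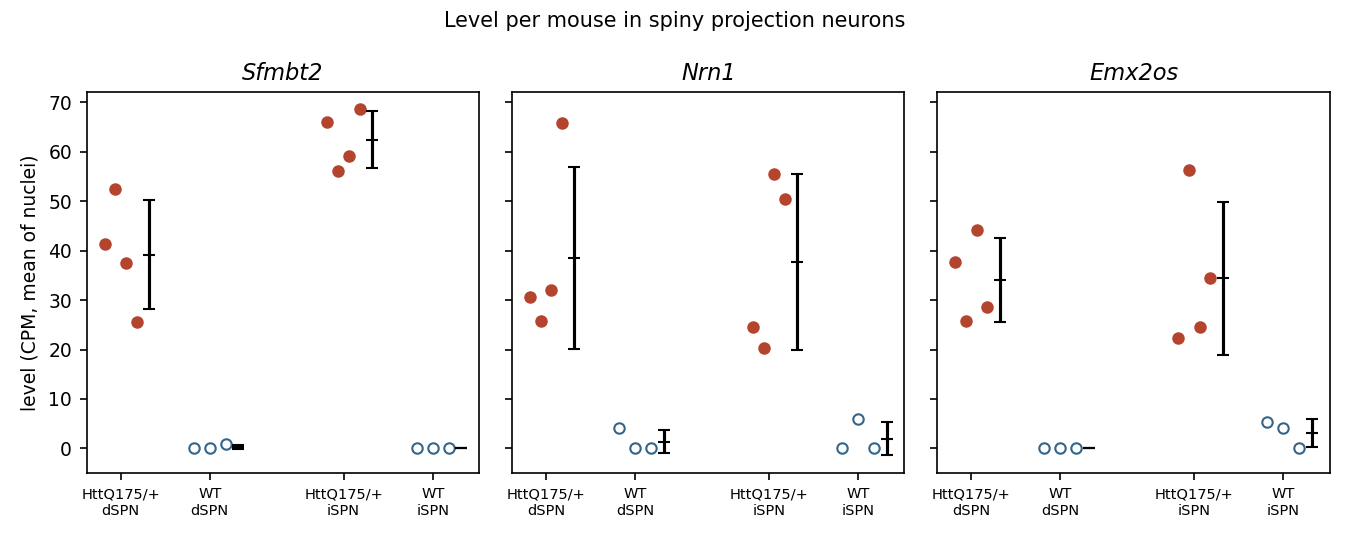
Level of each gene per mouse (CPM, mean of nuclei) in dSPNs and iSPNs of HttQ175/+ (filled) and WT (open) mice; each point is a mouse, and bars give mean ± SD. All HttQ175/+ mice lie above all WT mice in each panel, and Nrn1 in dSPNs has 1 mouse at 65.9 CPM above the other 3.

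iSPNs were not used to choose the genes, although they come from the same mice and libraries. All 3 genes were also higher there in every HttQ175/+ mouse than in any WT mouse, over 608 HttQ175/+ and 333 WT nuclei with medians of 1787 and 2554 UMIs. Across all 5908 genes fitted in iSPNs, which include Sfmbt2 but not Nrn1 or Emx2os, 9.19% had that pattern. The share among genes under the filter was not computed. Of 14 marker lists, 2 of other cell types were higher in iSPNs of all HttQ175/+ mice as well: the neuroblast markers summed to 120 to 171 CPM in HttQ175/+ mice and 75.7 to 101 CPM in WT mice, and the eccentric SPN markers to 45.0 to 78.3 and 12.1 to 26.0 CPM. The 6 indirect-pathway markers were lower, at 904.5 to 1056 CPM in HttQ175/+ mice and 2150 to 2832 CPM in WT mice, as were the cortical excitatory neuron markers, at 290.5 to 417 and 498 to 917 CPM. All neuroblast and eccentric SPN markers were found in HttQ175/+ iSPNs, and the part of any list in the values of the 3 genes was not tested.

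Sfmbt2 had 20, 24, 14 and 16 UMIs in iSPNs of HttQ175/+ replicates 1 to 4 and none in any WT mouse. Its level averaged 62.5 ± 5.79 CPM in HttQ175/+ mice (SD, n = 4), the narrowest spread among the 3 genes, and 11.2% of HttQ175/+ nuclei held a UMI (8.79 to 14.0), against 0 of 333 WT nuclei, which allows up to 0.901%. The pooled level was at least 17.8-fold higher in HttQ175/+ iSPNs, by the same floor.

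Nrn1 had 8, 9, 12 and 12 UMIs in iSPNs of the HttQ175/+ mice, against 0, 2 and 0 UMIs in the WT mice. It averaged 37.7 ± 17.8 CPM in HttQ175/+ mice (SD, n = 4) and 1.98 ± 3.43 CPM in WT mice (SD, n = 3), a ratio of pooled CPM of 14.8 (3.85 to 126). The level split the HttQ175/+ mice, with replicates 3 and 4 at 55.4 and 50.5 CPM and replicates 1 and 2 at 24.6 and 20.3 CPM. Emx2os had 7, 22, 6 and 8 UMIs in iSPNs of the HttQ175/+ mice, against 1, 1 and 0 UMIs in the WT mice. It averaged 34.4 ± 15.5 CPM in HttQ175/+ mice (SD, n = 4) and 3.18 ± 2.82 CPM in WT mice (SD, n = 3), a ratio of 15.5 (4.05 to 132). The shares of nuclei with a UMI were 6.25% and 0.3003% for Nrn1, and 6.58% and 0.601% for Emx2os, in HttQ175/+ and WT iSPNs.

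Nrn1 and Emx2os did not reach the filter on low counts in iSPNs. Sfmbt2 passed it through its HttQ175/+ mice alone, so its value in the filtered limma fit is a description only, at 3.04 ± 0.46 (SE) on the log2(CPM + 8.31) scale, with a Benjamini-Hochberg adjusted p of 0.00178 that reached 0.0383 without 1 mouse. In the fit with no filter, over 15702 genes of which 0.229% rose, limma gave adjusted p = 4.48e-05 for Sfmbt2 at a log2 change of 3.04 ± 0.36 (SE), a size that depends on the pseudocount because no WT mouse had a UMI. The same fit gave Nrn1 2.07 ± 0.42 (adjusted p = 0.0108) and Emx2os 1.81 ± 0.40 (adjusted p = 0.0253).

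Emx2, the protein-coding partner that starts beside Emx2os, was low in the same neurons. It had 28 UMIs in HttQ175/+ dSPNs and 0 in WT dSPNs, at 9.70 ± 2.90 CPM in HttQ175/+ mice (SD, n = 4), and the pooled level was at least 4.70-fold higher. In iSPNs it had 15 UMIs in HttQ175/+ nuclei and 1 in WT nuclei, a ratio of pooled CPM of 10.8 (1.67 to 456). With no filter in iSPNs its log2 change was 1.24 ± 0.35 (SE), which missed the threshold in limma (adjusted p = 0.0949).

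The 3 genes differed in where else in the striatum they were found. Over all WT nuclei, Sfmbt2 had 13 UMIs, of which 6 were in interneurons, 6 in glia or vascular cells and 1 in spiny neurons, although spiny neurons were 68.3% of WT nuclei. Emx2os had 20 WT UMIs, of which 16 were in glia or vascular cells and 13 of those in astrocytes. Nrn1 had 9 WT UMIs, with 5 in interneurons, all of the Sst type. In HttQ175/+ mice spiny neurons held 206 of 296 Sfmbt2 UMIs, 152 of 201 Nrn1 UMIs and 140 of 194 Emx2os UMIs, at 65.6% of nuclei.

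Sfmbt2 in HttQ175/+ mice was highest in D2.MSN at 62.5 ± 5.79 CPM, followed by IN-Chat, the cholinergic interneurons, at 59.8 ± 29.1, Eccentric MSNs at 55.1 ± 18.2, IN-Sst at 47.2 ± 16.7 and D1.MSN at 39.2 ± 11.1 CPM (SD, n = 4 each). It was lower in Astrocytes at 27.7 ± 14.3, Microglia at 26.5 ± 22.0, Oligodendrocytes at 26.4 ± 12.9, IN-Pnoc/Pvalb at 19.2 ± 18.1, Unknown.MSN at 16.7 ± 19.3 and Endothelial cells at 6.16 ± 12.3 CPM, and no UMI was found in 50 Polydendrocytes, the oligodendrocyte progenitors, which allows a share of up to 6%. Neighbours in that order differed by less than the larger of their SDs. In WT mice Sfmbt2 was found mainly in IN-Sst, at 28.0 ± 19.0 CPM, and in Astrocytes, at 19.5 ± 17.4 CPM (SD, n = 3 each). In those types the groups overlapped: IN-Sst held 5, 8, 4 and 7 UMIs in HttQ175/+ mice and 2, 2 and 1 in WT mice. In IN-Chat there were 14 UMIs in 67 HttQ175/+ nuclei and 1 UMI in the 6 WT nuclei, too few to compare.

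In Eccentric MSNs, a small class of spiny neurons outside the direct and indirect pathways, Sfmbt2 had 3, 3, 1 and 4 UMIs in HttQ175/+ mice and none in WT mice. The groups did not overlap, a pattern whose share over all genes was not computed in this type, so nothing is read from it. The pooled level of Sfmbt2 was at least 1.59-fold higher in HttQ175/+ nuclei. In the same nuclei Nrn1 had 3 UMIs and Emx2os 6 in HttQ175/+ mice, against 0 and 1 UMI in WT mice. Unknown.MSN nuclei held 3, 6 and 3 UMIs of Sfmbt2, Nrn1 and Emx2os in HttQ175/+ mice, and none in the 11 WT nuclei.

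Nrn1 in HttQ175/+ mice was highest in D1.MSN at 38.5 ± 18.4 CPM and D2.MSN at 37.7 ± 17.8 CPM, then Unknown.MSN at 33.9 ± 39.9, Oligodendrocytes at 25.7 ± 10.3, Astrocytes at 21.5 ± 14.9, IN-Sst at 20.5 ± 31.3 and Endothelial cells at 20.2 ± 23.6 CPM (SD, n = 4 each). Microglia, Polydendrocytes and Eccentric MSNs followed at 14.9 ± 21.2, 13.0 ± 16.1 and 11.4 ± 14.5 CPM, and neighbours again differed by less than the larger SD. No Nrn1 UMI was found in 67 HttQ175/+ IN-Chat nuclei or in 80 IN-Pnoc/Pvalb nuclei, which allow shares of up to 4.48% and 3.75% at median depths of 2880 and 2220 UMIs. In IN-Sst, where WT mice had Nrn1 too, the level was 20.5 ± 31.3 CPM in HttQ175/+ mice (SD, n = 4) and 26.6 ± 28.9 CPM in WT mice (SD, n = 3), and the groups overlapped.

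Emx2os followed another order. In HttQ175/+ mice it was highest in Polydendrocytes at 84.4 ± 58.6 CPM, from 7 UMIs in 50 nuclei, and in Astrocytes at 42.5 ± 25.3 CPM, then D2.MSN at 34.4 ± 15.5, D1.MSN at 34.0 ± 8.45, Microglia at 31.0 ± 27.8, Unknown.MSN at 28.9 ± 47.1, Eccentric MSNs at 25.2 ± 32.7 and Oligodendrocytes at 17.2 ± 8.99 CPM (SD, n = 4 each). IN-Sst and Endothelial cells were at 6.11 ± 8.48 and 5.73 ± 11.5 CPM, and IN-Chat and IN-Pnoc/Pvalb had no UMI, with the same upper limits as for Nrn1. Neighbours differed by less than the larger SD except Oligodendrocytes and IN-Sst. Astrocytes expressed Emx2os in both genotypes, at 42.5 ± 25.3 CPM in HttQ175/+ mice (SD, n = 4) and 76.9 ± 30.6 CPM in WT mice (SD, n = 3), with 18 UMIs in 198 HttQ175/+ nuclei and 13 UMIs in 102 WT nuclei. The groups overlapped there. Emx2 was likewise found in astrocytes of both genotypes, at 56.7 ± 34.3 CPM in HttQ175/+ mice (SD, n = 4) and 58.1 ± 53.7 CPM in WT mice (SD, n = 3). In interneurons no Emx2 UMI was found in 358 HttQ175/+ or 123 WT nuclei.

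In oligodendrocytes every HttQ175/+ mouse lay above every WT mouse for Sfmbt2 and Nrn1. The share of all genes with that pattern was not computed in this type, so nothing is read from the pattern. Sfmbt2 had 11, 4, 4 and 9 UMIs in 347 HttQ175/+ nuclei and none in 121 WT nuclei, at 26.4 ± 12.9 CPM in HttQ175/+ mice (SD, n = 4), at least 3.25-fold higher. Nrn1 had 8, 6, 2 and 6 UMIs in the same HttQ175/+ mice and none in WT mice, at least 2.55-fold higher. Emx2os had 18 UMIs in HttQ175/+ oligodendrocytes and 3 in WT oligodendrocytes, and its groups overlapped. Median depths were 2167 UMIs in HttQ175/+ and 1972 UMIs in WT oligodendrocytes. The 6 oligodendrocyte markers summed to 9530 to 20500 CPM in these nuclei of HttQ175/+ mice and 23540 to 26460 CPM in WT mice. The 6 neuroblast markers summed to 118 to 174 and 16.6 to 103 CPM, and the 6 indirect-pathway markers to 141 to 368 and 377 to 465 CPM. The groups did not overlap for any of these lists. Their part in the values of Sfmbt2 and Nrn1 was not tested.

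RNA released from other nuclei gives UMIs in droplets whose own nucleus does not express a gene, and its share in these values was not tested. Beside it stand the following values. In HttQ175/+ oligodendrocytes the levels of Sfmbt2, Nrn1 and Emx2os were 67.4%, 66.6% and 50.7% of those in dSPNs, while 10 spiny neuron genes (Drd1, Tac1, Pdyn, Rgs9, Ppp1r1b, Pde10a, Adcy5, Ptpn5, Gnal and Scn4b, chosen after values were seen) had a median of 46.3%. Those 10 genes ranged from 31.7% to 59.8%, which takes in the value of Emx2os. In HttQ175/+ astrocytes the 3 genes were at 70.5%, 55.8% and 125% of the dSPN level, and the 10 spiny neuron genes had a median of 31.9% and a range of 16.6% to 46.6%. The UMIs of the 3 genes in HttQ175/+ dSPNs and iSPNs together divided into 41.2% Sfmbt2, 30.7% Nrn1 and 28.1% Emx2os. The 68 UMIs in HttQ175/+ oligodendrocytes divided into 41.2%, 32.4% and 26.5%, close to the division in spiny neurons. Interneurons divided otherwise, with 82.7% Sfmbt2, 11.5% Nrn1 and 5.77% Emx2os among 52 UMIs, and astrocytes had 28.6%, 28.6% and 42.9% among 42 UMIs.

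**Figure D2:**
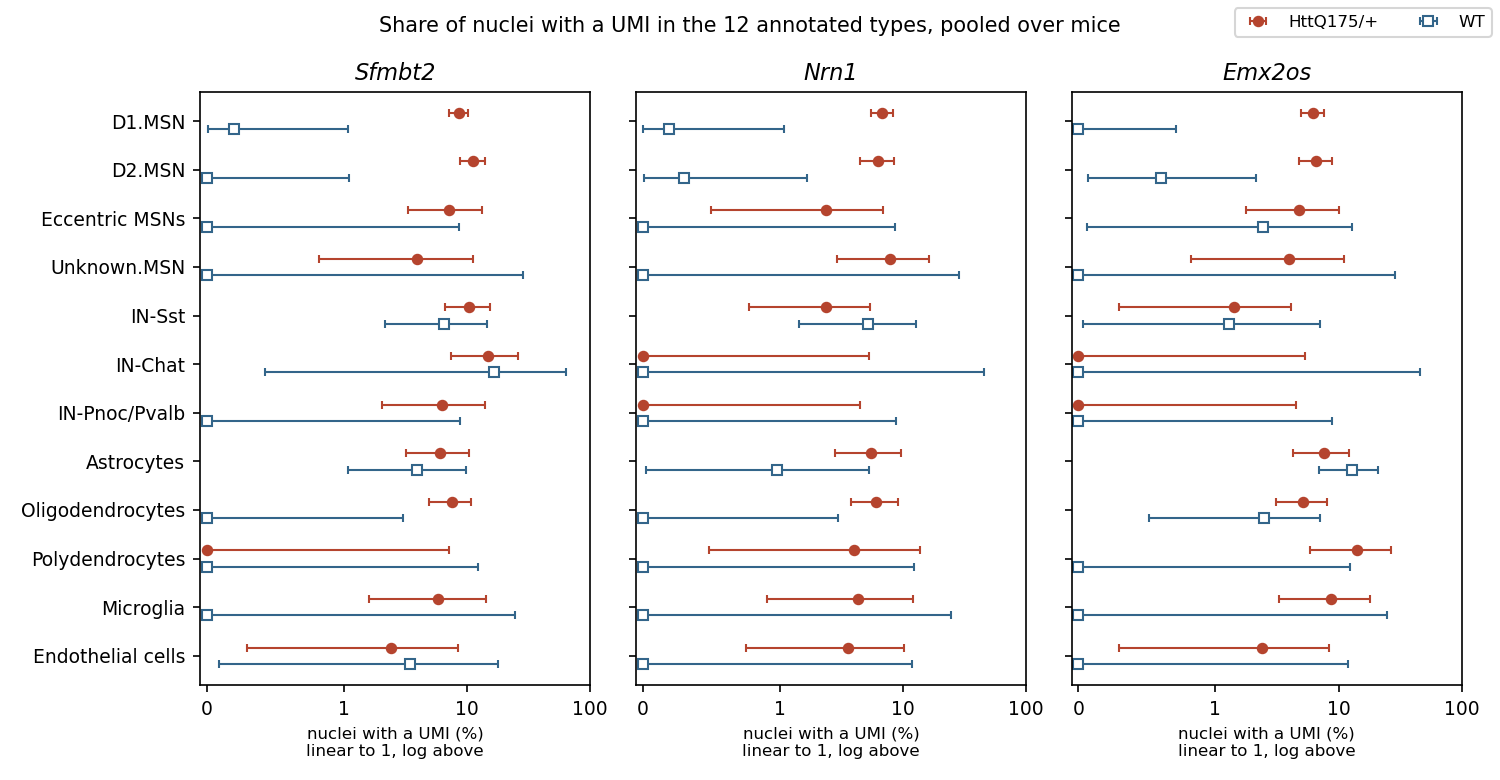
Share of nuclei with at least 1 UMI of each gene in the 12 annotated types, pooled over HttQ175/+ mice (filled circles) and WT mice (open squares), with 95% Clopper-Pearson intervals; the axis is linear up to 1% and logarithmic above. The intervals pool nuclei over mice, cover counting error only and do not compare the genotypes; at a count of 0 their upper end differs from the limit of 3 counts (0.717% against 0.585% for Emx2os in WT D1.MSN).

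Nuclei with more than 1 of the 3 RNAs were few. Of 1296 HttQ175/+ dSPN nuclei, 1037 had no UMI of any of the 3 genes, 240 had 1 of the genes, 18 had 2 and 1 had all 3, so 19.98% had at least 1. Among 513 WT dSPN nuclei 2 had 1 gene and none had more, or 0.390% with any. By mouse, 21.3%, 16.1%, 25.4% and 22.2% of dSPN nuclei had at least 1 of the genes in HttQ175/+ replicates 1 to 4, against 0.614%, 0% and 0.433% in WT replicates 1 to 3. Of 608 HttQ175/+ iSPN nuclei, 120 had 1 gene and 13 had 2, so 21.9% had at least 1, against 3 of 333 WT nuclei or 0.901%.

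In dSPNs 8 HttQ175/+ nuclei held both Sfmbt2 and Nrn1, where the shares in each mouse gave 7.23 if the genes were distributed independently. Sfmbt2 and Emx2os were together in 8 nuclei, with 7.10 expected, and Nrn1 and Emx2os in 5, with 5.46 expected. Over the 3 pairs that made 21 against 19.8 expected, a ratio of 1.06, and a count of 21 has a 95% interval of 13.0 to 32.1. The excess came from HttQ175/+ replicate 1, and without that mouse the ratio was 0.636. In iSPNs the 3 pairs made 13 against 11.4 expected, a ratio of 1.14, and a count of 13 has an interval of 6.92 to 22.2. Among nuclei deeper than the median of their mouse the ratios were 1.01 in dSPNs and 0.884 in iSPNs. Nuclei with a UMI of Sfmbt2, Nrn1 or Emx2os in dSPNs had medians of 2231, 2258 and 2300 UMIs, against 1988, 1978 and 1992 UMIs in nuclei without. With at most 3 molecules per nucleus, only a strong tendency of the RNAs to share nuclei or to avoid each other could have been detected.

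**Figure D3:**
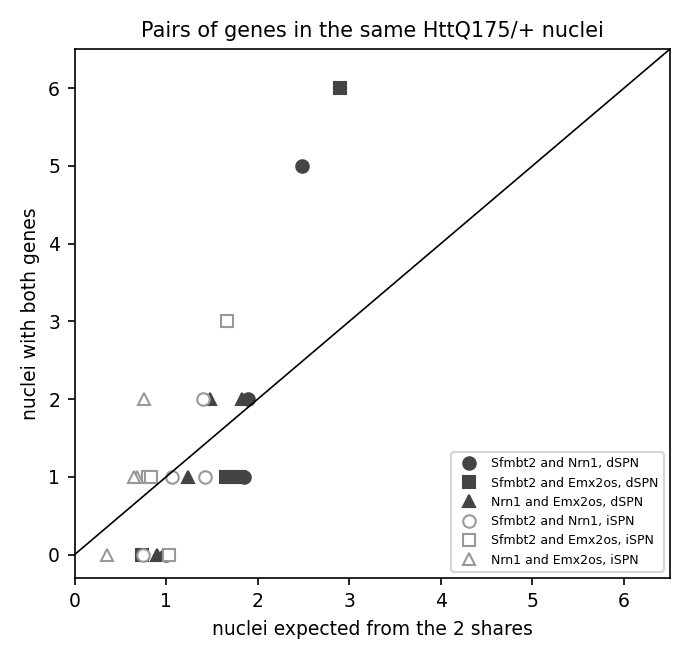
Nuclei of each HttQ175/+ mouse that held a UMI of both genes of a pair, against the number expected from the shares of each gene in that mouse; filled symbols are dSPNs and open symbols iSPNs, and the line marks equal numbers. HttQ175/+ replicate 1 gives the 2 highest points, with 6 and 5 nuclei in dSPNs against 2.90 and 2.49 expected.

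In dSPNs of the 4 HttQ175/+ mice the summed level of spiny neuron identity genes was higher in nuclei with at least 1 of the 3 RNAs. With 4 mice the test could not reach a p under 0.05. The difference was smaller in deep nuclei, and in iSPNs it had both signs. The summed level of the spiny neuron identity list, with Ppp1r1b, the gene of the dopamine signal integrator DARPP-32, and Pde10a, a striatal phosphodiesterase, among its members, averaged 13930 CPM in HttQ175/+ dSPN nuclei with at least 1 of the 3 RNAs and 13450 CPM in the other nuclei of the same mice. The difference was 473 ± 182 CPM (SD, n = 4), higher in 4 of 4 mice, with p = 0.125 in an exact two-sided sign-flip permutation test, the smallest p that 4 mice allow. Among nuclei deeper than the median of their mouse the difference was 78.3 ± 186 CPM (SD, n = 4; exact permutation p = 0.5), lower in 2 of 4 mice. In iSPNs the differences were -55.1, -722, 1546 and 1524 CPM in HttQ175/+ replicates 1 to 4. The 3 genes differed: nuclei with a Nrn1 UMI were higher than those without in each of the 4 mice. That difference was 564 to 1282 CPM in dSPNs and 978 to 3164 CPM in iSPNs. For Sfmbt2 it was -775.5 to 630 CPM in dSPNs and -1361 to 1662 CPM in iSPNs. For Emx2os it was -247.9 to 2690 CPM in dSPNs and -2541 to 4076 CPM in iSPNs. Differences by gene were not tested, nor repeated in deep nuclei. In dSPNs summed levels of cortical excitatory neuron markers differed by -102 to 73.6 CPM and those of neuroblast markers by -44.5 to 43.9 CPM between nuclei with and without the RNAs, with both signs among the 4 mice.

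**Figure D4:**
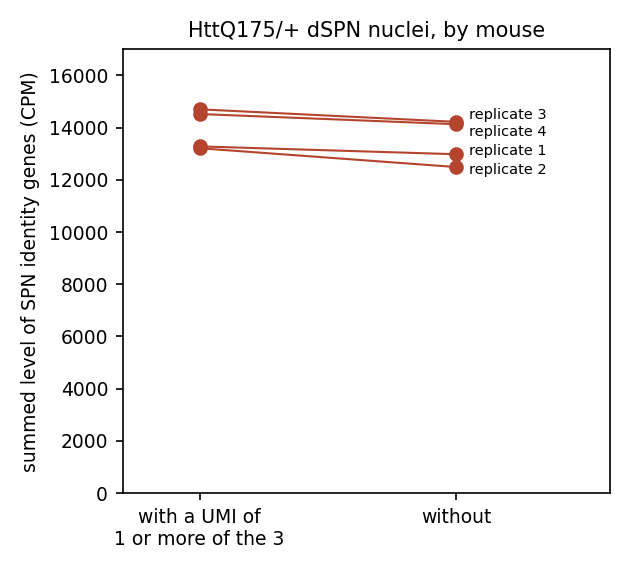
Summed level (CPM) of the spiny neuron identity genes in HttQ175/+ dSPN nuclei with a UMI of at least 1 of Sfmbt2, Nrn1 and Emx2os, and in nuclei without, joined for each of the 4 mice. All 4 lines are higher on the left, by 299.5 to 721 CPM.

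The dSPN label held against its markers: D1.MSN nuclei had 1077 to 1294 CPM of 7 direct-pathway markers in HttQ175/+ mice and 1430 to 1832 CPM in WT mice, where D2.MSN nuclei had 68.2 to 237 CPM and 54.9 to 178 CPM. Markers of 4 other cell types moved with genotype in dSPNs in the direction of the 3 genes, with no overlap between groups. The 6 neuroblast markers summed to 116 to 161 CPM in HttQ175/+ mice and 70.6 to 83.7 CPM in WT mice, the 7 eccentric SPN markers to 94.3 to 133 and 41.6 to 66.7 CPM, the 6 microglia markers to 24.3 to 42.7 and 15.8 to 23.8 CPM, and the 5 Pvalb or Pnoc interneuron markers to 4.53 to 7.27 and 2.54 to 4.47 CPM. All listed markers of these types were found in HttQ175/+ dSPNs, and their part in the values of the 3 genes was not tested. The 10 cortical excitatory neuron markers went the other way, at 268 to 352 CPM in HttQ175/+ mice and 376 to 740 CPM in WT mice, with Fezf2 and Emx1 at 0 in HttQ175/+ dSPNs. So did the 4 ependymal or choroid markers, at 2.01 to 12.9 CPM in HttQ175/+ mice and 13.9 to 32.65 CPM in WT mice. Of these, Foxj1 was at 0 in HttQ175/+ dSPNs.

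No fitted gene beside Sfmbt2 or Emx2os passed the threshold in dSPNs, and no gene beside Nrn1 was fitted. Emx2, which overlaps Emx2os by the GENCODE spans, did not reach the filter. It had 28 UMIs in HttQ175/+ dSPNs and 0 in WT dSPNs, at 7.45 to 13.95 CPM in HttQ175/+ mice. Of 26 genes in the deposited tables annotated within 500 kb of the 3 genes, 7 entered the dSPN fit. None of the 7 passed the threshold in limma, where 1.46% of all genes rose and 2.47% fell. Nor did any of the 7 reach an unadjusted p under 0.05. Annotated genes absent from the deposited tables were not counted. Beside Sfmbt2, Taf3, a core transcription factor subunit, had a log2 change of 0.38 ± 0.30 (SE; adjusted p = 0.566), Atp5c1, an ATP synthase subunit, -0.65 ± 0.42 (adjusted p = 0.468), and Kin, a DNA- and RNA-binding protein, -0.14 ± 0.22 (adjusted p = 0.796). Beside Emx2os, Hspa12a, Shtn1, Pdzd8 and Rab11fip2 had log2 changes of -0.07 to 0.15 (adjusted p = 0.804 to 0.917). Fars2, a mitochondrial tRNA synthetase gene whose end overlaps the 3' end of Nrn1, so that reads there can be told apart only by strand, had 49 UMIs in HttQ175/+ dSPNs and 20 in WT dSPNs, at 17.1 ± 6.95 and 14.9 ± 5.18 CPM (SD, n = 4 and 3), and the groups overlapped.

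In iSPNs 7 of the 26 neighbours entered the fit and 1 rose, where 0.508% of all genes rose and 1.91% fell. At an unadjusted limma p under 0.05, 2 of the 7 were higher and 0 lower, beside 6.13% and 9.06% of all genes. Kin, beside Sfmbt2, had a log2 change of 0.78 ± 0.31 (SE, limma adjusted p = 0.235). Hspa12a, a heat shock protein family member 481450 bases from Emx2os, was at 82.8 ± 6.75 CPM in HttQ175/+ mice (SD, n = 4) and 33.7 ± 10.1 CPM in WT mice (SD, n = 3), a log2 change of 1.04 ± 0.26 (SE; limma adjusted p = 0.0436). With no filter its adjusted p was 0.0726, and leaving out 1 mouse gave up to 0.176.

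**Figure D5:**
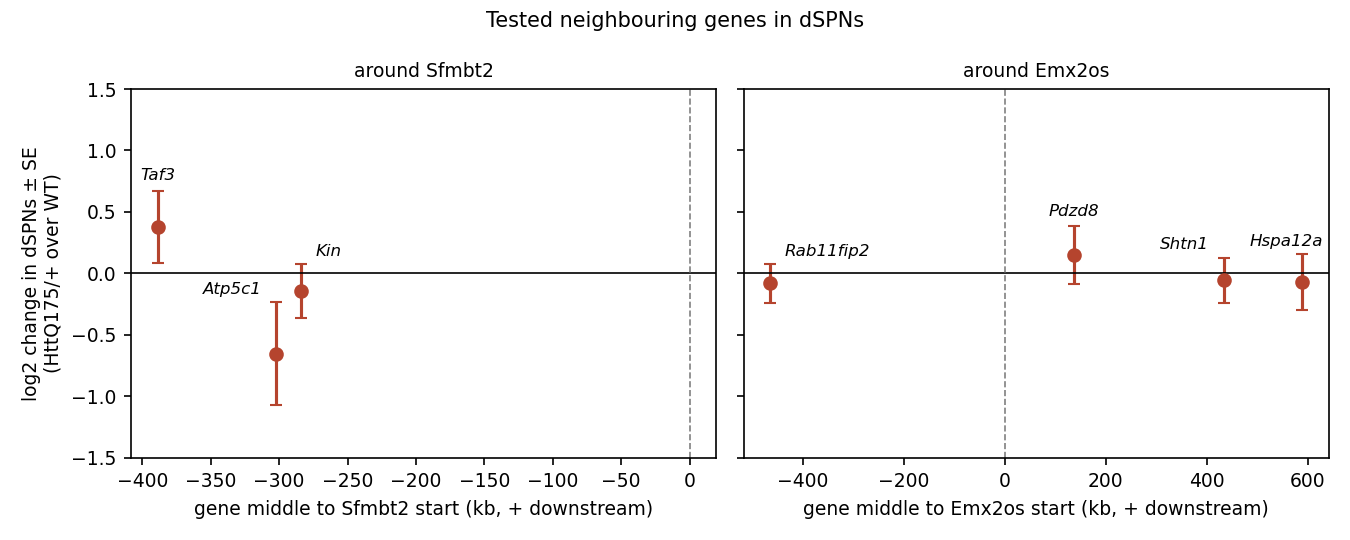
Fitted log2 change (HttQ175/+ over WT, ± SE) in dSPNs of the 7 tested genes within 500 kb of Sfmbt2 and Emx2os, against the distance from the middle of each gene to the start of Sfmbt2 or Emx2os in kb along its strand. The changes lie between -0.65 and 0.38 and none passed the threshold.

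Among 45 other Polycomb group and Pho complex genes, 39 were fitted in dSPNs, where 2 rose and none fell, beside 1.46% and 2.47% of all genes, with a median log2 change of 0.11 against 0.03 over all genes. Cbx8, a chromobox subunit that reads the Polycomb histone mark, was at 32.6 CPM in HttQ175/+ mice and 2.99 CPM in WT mice (log2 change 2.38 ± 0.35 SE, limma adjusted p = 0.00171). It passed the filter through its HttQ175/+ mice alone, so that filtered value is a description only. With no filter, over 17076 genes of which 131 rose, limma gave an adjusted p of 0.00313 for Cbx8. In iSPNs 29 of the list were fitted, 1 rose and none fell, beside 0.508% and 1.91% of all genes, and the median was -0.09 against -0.01. At an unadjusted limma p under 0.05 the list had 6 genes higher and 2 lower in dSPNs, and 2 higher and 1 lower in iSPNs, where 8.86% of all genes were higher and 8.83% lower in dSPNs, and 6.13% and 9.06% in iSPNs. Nothing particular to the list is read from counts of this size. Yy1, the DNA-binding partner of Sfmbt2, had a log2 change in dSPNs of 0.54 ± 0.23 (adjusted p = 0.236), Sfmbt1, its paralog, 0.20 ± 0.32 (adjusted p = 0.802), and Ezh2, the histone methyltransferase, -0.67 ± 0.24 (adjusted p = 0.151).

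Of the other genes that neuronal activity induces, 14 were fitted in dSPNs, where none rose and 1 fell, beside 1.46% and 2.47% of all genes, with a median log2 change of -0.17. Inhba, an activin subunit, was at 20.9 CPM in HttQ175/+ mice and 39.4 CPM in WT mice (-0.93 ± 0.24 SE, limma adjusted p = 0.0465), a call lost without any 1 of the 7 mice. In iSPNs none of 10 passed and the median was -0.21. At an unadjusted limma p under 0.05, 1 was higher and 2 lower in dSPNs, and none was higher and 1 lower in iSPNs. Nothing particular to this list or the next is read from such counts. Of 13 surface proteins and receptors related to Nrn1 none rose and 1 fell in each neuron type: Ntrk2, the receptor of BDNF, was at 116 CPM in HttQ175/+ and 197 CPM in WT dSPNs (-0.88 ± 0.19, adjusted p = 0.0179), and at 73.5 CPM in HttQ175/+ and 213 CPM in WT iSPNs (-1.54 ± 0.27, adjusted p = 0.00452). The dSPN call was lost without HttQ175/+ replicate 4, WT replicate 1 or WT replicate 3, with adjusted p up to 0.0894. The medians of this list were -0.13 in dSPNs and -0.16 in iSPNs, and at an unadjusted p under 0.05 none was higher, with 2 lower in dSPNs and 4 in iSPNs.

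Of 25 genes of the pallium and cortex, the territory of Emx2, 4 were fitted in dSPNs, where 1 rose and 1 fell, beside 1.46% and 2.47% of all genes. These counts leave out list genes under the filter, such as Emx2, with 28 UMIs in HttQ175/+ dSPNs and 0 in WT dSPNs. Pax6, also on the list and not called, had 37 UMIs in HttQ175/+ dSPNs and 1 in WT dSPNs. The directions of the other genes under the filter were not counted. Neurod2, a transcription factor of cortical excitatory neurons, was at 24.5 CPM in HttQ175/+ mice and 1.26 CPM in WT mice (log2 change 2.44 ± 0.40 SE, limma adjusted p = 0.00315). Wnt8b, a signalling ligand of the medial pallium, went the other way, at 0.296 CPM in HttQ175/+ mice and 30.9 CPM in WT mice (-3.14 ± 0.45, adjusted p = 0.00158). Neurod2 passed the filter through its HttQ175/+ mice alone and Wnt8b through its WT mice alone, so these filtered values are descriptions only. With no filter, 131 of 17076 genes rose and 203 fell. There limma gave adjusted p = 0.00313 for Neurod2 and 0.000457 for Wnt8b. In iSPNs 2 were fitted and none passed, nor at an unadjusted limma p under 0.05. The spiny neuron identity list, by comparison, had 26 of 42 genes lower in HttQ175/+ dSPNs and none higher (1 higher and 33 lower at an unadjusted limma p under 0.05), at a median log2 change of -0.78, where 2.47% of all genes fell. In iSPNs 20 of 39 were lower, where 1.91% of all genes fell, and none higher (31 lower at an unadjusted p under 0.05), at a median of -0.84.

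The genes whose levels followed those of the 3 genes were named over 64 sums of nuclei by mouse and type, all of which share mice and libraries, and they depended on the pseudocount. By Pearson r of log2(CPM + 20), Sfmbt2 was most like Scn9a (0.62), Ece2 (0.61), Ogt (0.57), Vwa5b2 (0.56) and Ddx25 (0.56). Nrn1 was most like Shox2 (0.54), Maneal (0.53), Pcdhb14 (0.52), Neurod2 (0.51) and Ap2m1 (0.50). Emx2os was most like Cpne2 (0.58), Dennd1a (0.58), Ncan (0.58), Son (0.56) and Zfp579 (0.54). Among themselves the 3 genes had r of 0.27 for Sfmbt2 with Nrn1, 0.19 for Sfmbt2 with Emx2os and 0.20 for Nrn1 with Emx2os. With a pseudocount worth 2 UMIs in each type, so that a gene at 0 takes a value that differs between types, the same pairs had r of 0.79, 0.77 and 0.76. Hoxc4 and Shox2 were then among the 5 genes most like each of the 3, at r of 0.81 to 0.88, Neurod2 among those of Sfmbt2 (0.84) and Nrn1 (0.88), and Crnde, a long noncoding RNA, among those of Nrn1 (0.85) and Emx2os (0.80). Over the 14 sums of dSPNs and iSPNs alone the same pairs had r of 0.85, 0.90 and 0.83, which reflects the genotype difference on which the genes were chosen.

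Libraries held 1096116 to 2256178 UMIs in HttQ175/+ mice and 872558 to 1436425 UMIs in WT mice, with median depths of 1657 to 2385 and 2498 to 2599 UMIs per nucleus. The annotation's genotype matched the labels for all 4524 nuclei, and 6 nuclei shared a barcode with a nucleus of another library.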

How the data were processed

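Nuclei went through iodixanol and into droplet libraries with version 3 chemistry, per the labels' protocols; Cell Ranger 3.0.2, Seurat and mm10 are named in the submitters' processing notes. The authors deposited natural log values, ln(1 + UMIs per 10000 UMIs of the nucleus), for 27998 genes, and an annotation with other columns such as cell type. Dividing by the lowest step in a nucleus returned whole UMIs for 100% of 5824756 values (tolerance 0.02). Nuclei held 1128 to 5632 UMIs. None was left out and no doublet caller was run; the authors' filters are not given here.

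The deposited unit is a log, so limma-trend (limma 3.58.1, R 4.3.3) was fitted. Levels were averaged over nuclei per mouse and type, scaled by trimmed means and logged after adding 3.67 CPM in dSPNs or 8.31 CPM in iSPNs, which equal 2 UMIs in the median mouse. The filter asked for 15 UMIs overall and for 10, at the median sum, in 3 mice. The threshold was a Benjamini-Hochberg adjusted p under 0.05. Fits were tested on simulated data. CPM are printed unscaled. Scaling moved the median log2 change of all genes to 0.03, against 0.14 unscaled, in dSPNs and to -0.01, against 0.10 unscaled, in iSPNs.

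The members, lists and tests were chosen with earlier results of these data known. Genes named were the 3 members in every type, neighbours within 500 kb, up to 4 called genes of each list and the 5 genes most like each member. Yy1, Sfmbt1, Ezh2, Hoxc4, Shox2, Onecut1, Pax6 and Crnde were named after their values were seen. Counts over the lists cover every fitted gene, but 2 of those genes are not reported here. Intervals are from scipy 1.17.1. Gene coordinates are from GENCODE vM21. Alternatives changed the pseudocount, filter, scaling, averaging, depth and mice.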

Additional observations from a re-analysis of the deposited data

Results flagged for a closer look

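Among 42 sets of 4 HttQ175/+ mice (1 gene in 1 type, level or share), 4 had a mouse whose gap to the nearest other exceeded Dixon's critical ratio of 0.829, and chance gives about 1 in 20. In every case it was replicate 4, and in every case it was the highest. Nrn1 in dSPNs was at 65.86 CPM there, from 39 UMIs, against 25.8 to 31.95 CPM in the other HttQ175/+ mice. Sfmbt2 in Eccentric MSNs was at 82.34 CPM, from 4 UMIs, against 44.2 to 47.2 CPM. Emx2os in Astrocytes was at 80.34 CPM, from 5 UMIs, against 28.4 to 31.6 CPM. Emx2os was found in 8.257% of Oligodendrocytes of that mouse, from 9 UMIs, against 3.51% to 4.11% in the others. Replicate 4 was the lowest HttQ175/+ mouse for Sfmbt2 in dSPNs, at 25.5 CPM.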

How the results depend on the processing

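No paired analysis was possible because replicate numbers here only name mice. Without scaling, 226 genes rose and 162 fell in dSPNs, or 41.8% lower against 62.9% as reported; in iSPNs 43 rose and 75 fell, or 63.6% lower against 79.0%. Leaving out 1 mouse gave 54 to 137 rises and 107 to 192 falls in dSPNs, and 12 to 24 rises and 41 to 128 falls in iSPNs. Numbers more than 1.5 times lower came in dSPNs without HttQ175/+ replicate 1 (54 rises), 2 (62) or 4 (69), WT replicate 1 (83 rises, 107 falls) or WT replicate 3 (134 falls). In iSPNs they came without HttQ175/+ replicate 1 (12 rises, 70 falls), 2 (14 rises) or 3 (18 rises), WT replicate 1 (12 rises, 41 falls) or WT replicate 3 (19 rises, 53 falls). Thinned to 1100 UMIs, the mean share of HttQ175/+ nuclei with a UMI was 4.198% in dSPNs and 6.602% in iSPNs for Sfmbt2, 3.88% and 3.989% for Nrn1, and 3.5% and 3.632% for Emx2os, lower because fewer UMIs are drawn. The ratio of nuclei with both genes of a pair to the number expected in dSPNs lay between 0.6364, without HttQ175/+ replicate 1, and 1.207. Of the 5 genes most like each member, dSPNs and iSPNs alone shared 0 for Sfmbt2, 1 for Nrn1 and 0 for Emx2os. With a pseudocount set in each type, an alternative added after seeing the data because the 20 CPM had been chosen in its place, 0, 2 and 0 were shared.

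Reversals touched genes that passed no threshold. Without scaling the log2 change in dSPNs was 0.042 for Hspa12a, 0.033 for Rab11fip2 and 0.058 for Shtn1, and in iSPNs 0.064 for Rab11fip2 and 0.037 for Taf3. From summed UMIs it was 0.00352 for Hspa12a and -0.012 for Son in dSPNs and 0.00624 for Pdzd8 in iSPNs. Leaving out 1 mouse gave, in dSPNs, -0.085 to 0.26 for Cpne2, -0.056 to 0.079 for Son, -0.21 to 0.12 for Hspa12a, -0.15 to 0.38 for Pdzd8, -0.13 to 0.00721 for Rab11fip2 and -0.14 to 0.076 for Shtn1, and in iSPNs -0.275 to 0.071 for Pdzd8, -0.15 to 0.014 for Rab11fip2 and -0.25 to 0.11 for Taf3. The cause was not tested. Over named genes and alternatives, 494 values kept their direction and side of the threshold, 19 lost the call and 22 reversed. Depth limits every statement on single nuclei, since most positive nuclei held 1 UMI.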
